A study of Mus musculus with 2 samples.

Results

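Lhx6 interneurons without Sst were 54 cells of the postnatal mouse cerebral cortex, 38 in the control library and 16 in the library from cortex with white matter injury (WMI), out of 17653 barcodes that passed the limits on quality. A barcode passed with at least 1000 unique molecular identifiers (UMIs, counted RNA molecules), at least 500 genes and at most 10% of its UMIs from mitochondrial genes. A passing barcode was taken when it held at least 2 UMIs of Gad1 and Gad2 together, at least 1 UMI of Lhx6, no UMI of Sst, at most 1 UMI of Slc17a7 and at most 2 UMIs of Adarb2. The cells were thus chosen by their measured counts of these 6 genes, whose levels are no result.

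Each group was a single library of C57BL/6 mouse cerebral cortex, made by droplet single-cell RNA sequencing (10x Genomics). By the labels, the WMI mice had the right common carotid artery tied on postnatal day 7 and spent 1 h in hypoxia, and the cortex on the ligated side was taken on postnatal day 14 and compared with the same side of control mice. The study's methods describe earlier surgery, a longer hypoxia and enzymatically dissociated cells of several animals per group, whereas the labels speak of nuclei and list 1 library a group, so neither the age nor the number of animals behind a library is settled here. The labels name no transgene. The control library held 10288 barcodes and 66470806 UMIs, of which 9540 barcodes passed, and the WMI library held 8354 barcodes and 60568639 UMIs, of which 8113 passed. With 1 library a group there is no replicate spread between animals, no test between control and WMI is possible, and every interval given covers counting error only.

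Cortical interneurons release GABA and restrain the excitatory neurons around them. Those that arise in the medial ganglionic eminence keep the LIM homeodomain factor Lhx6 and the factor Sox6 after they settle in the cortex, and in the adult they fall mainly into cells that make the neuropeptide somatostatin (Sst) and fast-spiking cells that make the calcium buffer parvalbumin (Pvalb). Parvalbumin itself appears late in postnatal life, so that young fast-spiking cells are recognised by other RNAs, and they carry the neuregulin receptor Erbb4. Interneurons of the caudal ganglionic eminence lack Lhx6 and are rich in Adarb2.

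Before the results, several features of the 2 libraries bear on every comparison. The control cells held 3243 UMIs at the lowest, 10653.5 at the median and 21336 at the highest, 393028 in all. The WMI cells held 2801, 10846 and 42014, 190890 in all. The deepest WMI cell alone gave 22.0% of the WMI UMIs and more than any other cell by a wide margin, the next holding 18957, and the values above a few UMIs that it moved most are given with and without it. That cell held 20 UMIs of Gad1 and Gad2, 2 of Lhx6, 426 of Erbb4 and none of Slc17a7. Xist, the RNA of the inactive X chromosome, was at 0 UMIs in all 38 control cells and reached 105 UMIs in 9 of 16 WMI cells, while UMIs of Y-linked genes were found in 35 of 38 control and 14 of 16 WMI cells. Against the level that 3 counts would give in control, Xist was at least 72.1-fold higher in WMI. In 7 WMI cells Xist and Y-linked UMIs occurred together. The libraries thus differed in their sex-linked RNA, the labels give no sex, and sex and injury cannot be told apart here. Of all barcode sequences, 36 occurred in both libraries, none of them among the 54 cells.

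All 55450 gene identifiers and symbols of the files are those of GENCODE M21, an annotation of the mouse build GRCm38, where Lhx6 (ENSMUSG00000026890) spans chr2:36081953-36105408, Erbb4 (ENSMUSG00000062209) chr1:68032186-69108059, Pvalb (ENSMUSG00000005716) chr15:78191114-78206400, Cemip (ENSMUSG00000052353) chr7:83932857-84086502 and Pdzrn3 (ENSMUSG00000035357) chr6:101149609-101377897, all 5 on the minus strand. The submitters' processing notes name the build mm9, so these positions are the annotation's own.

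The rule narrowed the cells step by step. In the control library 758 barcodes held enough Gad1 and Gad2, the enzymes that make GABA, 168 of them held Lhx6, 123 of these held at most 1 UMI of Slc17a7, the vesicular glutamate transporter of excitatory neurons, 83 also held at most 2 UMIs of Adarb2, an RNA-editing family member, and 38 of these had no Sst. In the WMI library the counts were 611, 77, 55, 42 and 16. Many cells sat at the edge of the rule. Exactly 1 UMI of Lhx6 was held by 18 control and 8 WMI cells, while 133 control and 81 WMI barcodes met every other condition with no Lhx6 UMI. Exactly 1 UMI of Sst kept out 24 control and 6 WMI barcodes that met the rest of the rule. A single Sst UMI is a weak mark, because 26.2% of the 1625 control and 23.2% of the 1312 WMI excitatory neurons (Slc17a7 at least 3 UMIs, no Gad1 or Gad2), which should lack Sst, held at least 1 as well, at median depths of 10314 and 11239 UMIs. For Lhx6 that share was far lower, with 1 UMI in 35 of the 1625 control excitatory neurons and in 13 of the 1312 WMI excitatory neurons, where 1 more held 2. Adarb2 was common in the same neurons. Only 21.6% in control and 23.5% in WMI held no Adarb2 UMI, and 25.5% in each library held 3 or more. The limit of 2 Adarb2 UMIs thus lay within the counts seen in excitatory neurons.

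Markers outside the rule were compared with the label. Erbb4, the neuregulin receptor, was found in every cell, with 1 UMI at the lowest, 84.5 at the median and 376 at the highest in control cells and 3, 73 and 426 in WMI cells. The ranges of both libraries overlapped almost fully. The summed level of a gene is given as CPM, its UMIs over the cells of a library per 1000000 UMIs of those cells. Summed over the cells, Erbb4 stood at 9447 (95% interval 9146 to 9756) CPM in control and 9801 (9362 to 10256) in WMI cells. Its level was higher than in excitatory neurons of the same library by 4.51 on the log2 scale in control and 4.98 in WMI. Over Adarb2 interneurons, where it stood at 6598 and 7661 CPM, it was higher by only 0.52 and 0.36. Over Sst interneurons it was higher by 2.38 and 0.77. Its summed level thus stood well apart from excitatory neurons and much less from Adarb2 interneurons, but it did not separate every cell. At full depth 96.0% of control and 91.9% of WMI excitatory neurons also held an Erbb4 UMI, at summed levels of 415 and 310 CPM. By share of its own UMIs, the lowest control cell held 1 Erbb4 UMI of 6163 and the lowest WMI cell 3 of 15144. Both lay below those excitatory levels. Sox6, which acts after Lhx6 in these cells, had a UMI in 36 of 38 control and 16 of 16 WMI cells, at 870 and 995 CPM, and exceeded excitatory neurons by 3.42 and 3.15 and Adarb2 interneurons by 0.98 and 1.65. Against Sst interneurons it was at -0.54 and 0.13. Over 10437 genes with at least 100 UMIs in each library, 329 were at least 2-fold higher than in excitatory neurons in both libraries (3.15%) and 754 at least 2-fold lower (7.22%).

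Of the 19 measured transcription factors of the medial ganglionic eminence lineage, 17 had UMIs. Nkx2-1 and Lhx8, which mark the progenitor zone and the striatal and basal forebrain branch, were at 0 in both libraries, where 0 counts allow a level of up to 7.63 CPM in control and 15.7 CPM in WMI cells (3 counts). Markers of the striatum and basal forebrain, which a cortical dissection can carry along, summed to 151 UMIs in control and 64 in WMI cells, led by Foxp1, with 8 of 18 genes at 0, among them Chat, Drd2, Adora2a and Isl1.

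Parvalbumin-type markers were present, but Pvalb itself was rare. Pvalb gave 7 UMIs in 6 of 38 control cells (15.8%, exact interval 6.02 to 31.3) and 2 UMIs in 2 of 16 WMI cells (12.5%, 1.55 to 38.3). In excitatory neurons, which should lack it, the share was 1.48% in control and 0.229% in WMI. After each cell was thinned to 3000 UMIs, 1 of 38 control and 1 of 15 WMI cells kept a Pvalb UMI, 1 shallower WMI cell being left out, against 0.615% and 0.157% of excitatory neurons, so at equal depth the intervals of the shares overlapped. Most UMIs of the other 11 genes came from Eya4, a transcriptional co-activator, Plcxd3, Ppargc1a, a regulator of mitochondrial genes, Tmem132c and Syt2, the calcium sensor of fast release. The rest of the list was sparse. Etv1 gave 22 UMIs in control and 19 in WMI cells, Kcns3 13 and 14, and Tac1 9 and 11. Of the WMI UMIs of Tac1, 72.7% came from 1 cell. Cox6a2 gave 0 and 2 UMIs, and Tpbg and Pthlh each gave 1 and 0. Syt2 had 36 UMIs in 14 of 38 control cells and 18 UMIs in 6 of 16 WMI cells, and was above excitatory neurons by 4.18 and 4.66 on the log2 scale. Without the deepest cell its WMI level went from 94.3 to 60.5 CPM. Eya4 was above them by 5.24 and 4.72, and Tmem132c by 5.47 and 5.02. Summed over the 12 genes, the list stood at 1252 (1144 to 1367) CPM in control and 1509 (1339 to 1693) in WMI cells, compared with 649 and 890 in Sst interneurons and 298 and 369 in excitatory neurons.

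Kcnc2, a Kv3 potassium channel that lets fast-spiking cells fire at high rates, ranged from 2 to 101 UMIs around a median of 31.5 in control cells and from 1 to 324 around 30 in WMI cells. The libraries overlapped, with 3661 and 3646 CPM, and the level was above that of excitatory neurons by 3.95 and 3.97 on the log2 scale. Kcnc2 moved with the deepest WMI cell, without which the ratio of WMI to control went from -0.01 to -0.55. In Sst interneurons it stood at 2314 and 3501 CPM, so the cells without Sst were higher by 0.66 in control and by 0.06 in WMI, and at -0.49 in WMI without the deepest cell. Over Adarb2 interneurons the difference was 1.64 and 2.07. Chandelier cell markers summed to 3 and 5 UMIs, with Nkx2-1, Col15a1 and Sntb1 at 0. The list of caudal interneuron markers stood at 463 and 262 CPM, with Synpr the most abundant and Htr3a and Sp8 at 0. That list includes Adarb2, which the rule held low. The list around Lamp5, the marker of a neurogliaform group, stood at 234 and 183 CPM, of which Lamp5 itself gave 3 and 2 UMIs, while Prox1, a factor of caudal interneurons, gave 2 and 0.

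**Figure D1:**
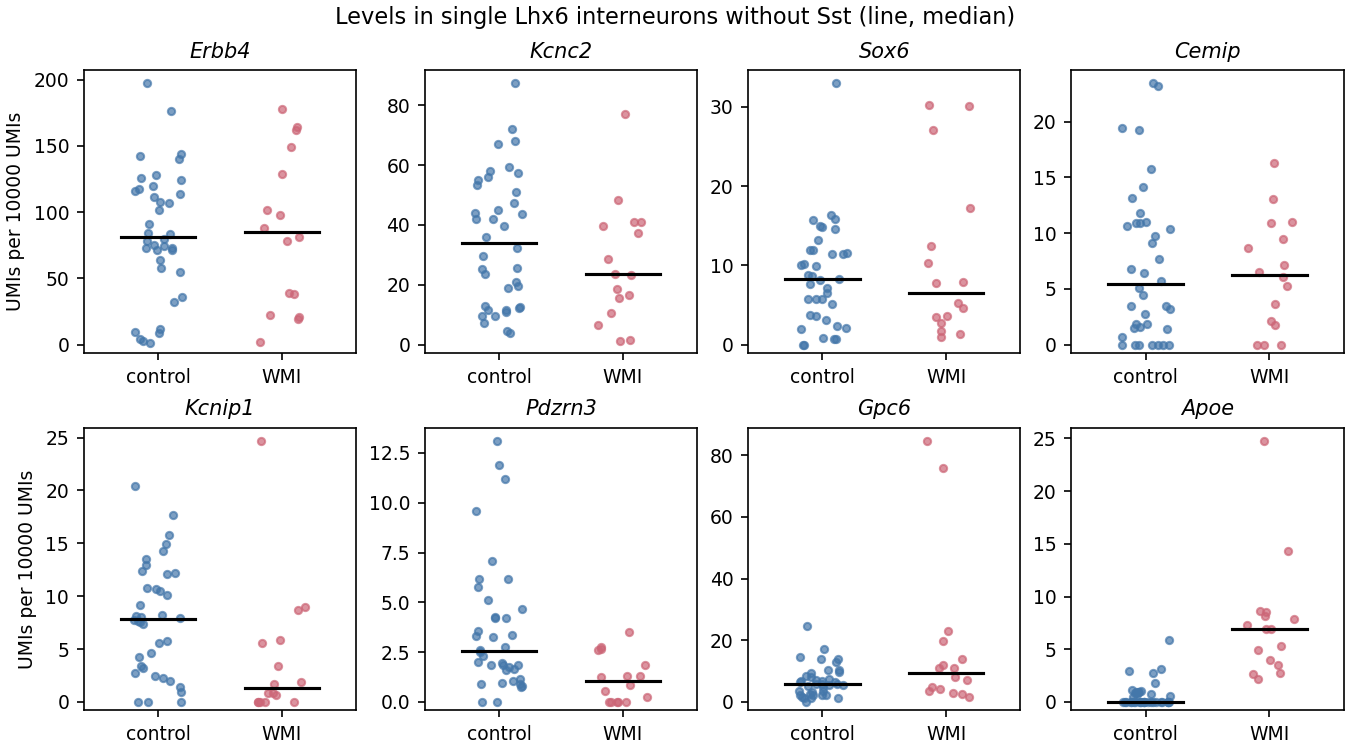
Levels of 8 genes in single Lhx6 interneurons without Sst, as UMIs per 10000 UMIs of the cell (vertical axis), with 1 point per cell for the 38 control and 16 WMI cells and a line at the median. The ranges of all 8 genes overlapped between libraries, with Kcnip1 from 0 to 20.4 in control and 0 to 24.7 in WMI around medians of 7.85 and 1.31, Pdzrn3 around medians of 2.56 and 1.05, and Apoe up to 5.83 in control and from 2.14 to 24.8 in WMI.

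Which RNAs set these cells apart from the other Lhx6 class was examined against the Sst interneurons of the same library, which met the same rule but held at least 2 Sst UMIs (21 cells in control and 20 in WMI, at median depths of 10891 and 11272.5 UMIs). Both classes were drawn from the same counts, so the ratios describe them and carry no test. Of 620 genes with at least 100 UMIs over both classes in each library, 13 were at least 2-fold higher in the cells without Sst in both libraries (2.1%) and 19 at least 2-fold lower (3.06%).

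Among these genes, Cemip, which takes part in the breakdown of hyaluronan, ranked first on the higher side by the smaller ratio of both libraries. It gave 308 UMIs in 31 of 38 control cells and 130 in 13 of 16 WMI cells, at 784 and 681 CPM, compared with 73.4 and 143 CPM in Sst interneurons. The log2 ratio was 3.42 (2.73 to 4.19) in control and 2.25 (1.68 to 2.86) in WMI, and 1.98 in WMI without the deepest cell. Tmem108 followed with 1.82 and 2.41, the latter 1.86 without the deepest cell, and Fmn1, a formin that builds actin filaments, with 1.77 and 1.87. Ntrk3, the receptor of neurotrophin-3, was higher by 1.59 and 1.44, Inpp4b, a lipid phosphatase, by 1.32 and 2.23, Fam19a2 by 1.54 and 1.21, Zfp804b by 1.19 and 3.03, and Plcxd3 by 1.30 and 1.18. The deepest WMI cell gave 41.1% of the Ntrk3 and 43.4% of the Plcxd3 UMIs of the WMI cells, and without it their ratios were 1.04 and 0.72. The other parvalbumin-type genes did not all lie on the same side. Eya4 was at 0.84 and 1.17 and Ppargc1a at 1.06 and 0.85, whereas Tmem132c was at 0.53 (-0.03 to 1.11) in control and -0.51 (-1.12 to 0.09) in WMI. Syt2 had 1 UMI in the Sst interneurons of each library, so its ratios of 4.49 (1.92 to 9.83) and 4.40 (1.74 to 9.78) are known only roughly, and the deepest cell gave 9 of its 18 WMI UMIs, with a ratio of 3.76 without that cell. Erbb4 was higher by 2.38 in control and by 0.77 in WMI, and its ratio of WMI to control within Sst interneurons was 1.66.

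On the lower side, Grin3a, an NMDA receptor subunit gene typical of Sst cells, stood at 270 and 162 CPM, against 1481 and 876 CPM in Sst interneurons, a log2 ratio of -2.46 (-2.78 to -2.14) in control and -2.43 (-3.03 to -1.88) in WMI. Trhde, which cleaves thyrotropin-releasing hormone, was lower by -2.39 and -2.67, the cadherin gene Cdh9 by -2.13 and -2.24, and the synaptic vesicle gene Synpr by -2.02 and -3.04. The calcium channel subunit gene Cacna2d3 was at -2.37 and -1.86, the metabotropic glutamate receptor gene Grm8 at -1.58 and -3.02, and Neto1, an auxiliary kainate receptor subunit, at -1.55 and -1.90. Without the deepest cell these 7 ratios in WMI ran from -2.68 for Synpr to -1.75 for Cacna2d3. The Sst-type list as a whole gave 160 UMIs in control and 52 in WMI cells, at 407 and 272 CPM. That list includes Sst, which the rule held at 0.

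**Figure D2:**
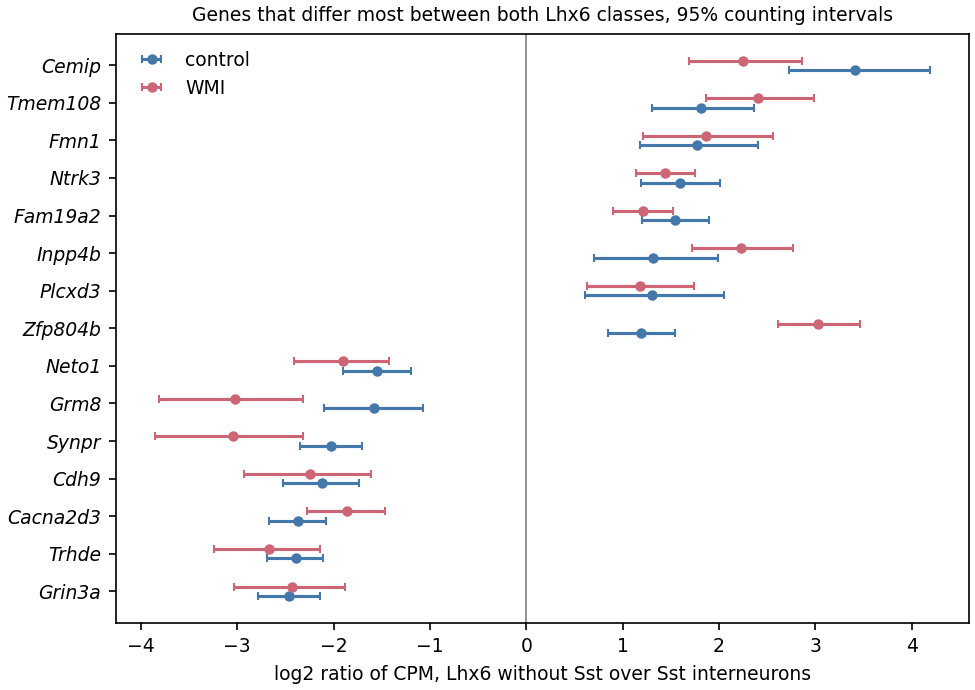
Log2 ratio of CPM in Lhx6 interneurons without Sst over Sst interneurons of the same library (horizontal axis) for the 8 genes highest and 7 of the 8 lowest in both libraries, with 95% counting intervals. All 15 genes lay on the same side of 0 in control and WMI, which the choice of genes required, from 3.42 for Cemip to -2.46 for Grin3a in control.

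The barcodes left out for a single Sst UMI were intermediate for Cemip and Grin3a in the control library. In the 24 control cells Cemip stood at 383 CPM (311 to 467) and Grin3a at 649 CPM (554 to 755), between the 784 and 270 CPM of the cells without Sst and the 73.4 and 1481 CPM of Sst interneurons. Not every gene was intermediate. In the same 24 cells Zfp804b stood at 903 CPM (827 in cells without Sst, 363 in Sst interneurons) and Inpp4b at 93.8 CPM (275 and 110). In the 6 WMI cells Cemip was at 499 CPM (352 to 688) and Grin3a at 67.5 CPM (21.9 to 157), against 681 and 162 CPM in the WMI cells without Sst.

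Against Adarb2 interneurons (at least 3 Adarb2 UMIs and no Lhx6, 198 control and 257 WMI cells), 3188 genes had at least 100 UMIs in each library, 37 were at least 2-fold higher in both (1.16%) and 124 at least 2-fold lower (3.89%). By the smaller ratio of both libraries, Eya4 led the higher side with log2 ratios of 2.57 and 3.00. It was followed by Cacna2d2, a calcium channel subunit, with 2.32 and 2.58, Cemip with 2.27 and 3.19, and Tmem132c with 2.24 and 2.65. Il1rapl2, a synaptic adhesion protein gene, stood at 1.80 and 2.07, Ank1, an ankyrin, at 1.87 and 1.74, and the kinase gene Nek7 at 1.76 and 1.77. On the lower side, Prox1 gave 2 UMIs in control and 0 in WMI cells against 190 and 255 in Adarb2 interneurons, the receptor tyrosine kinase gene Kit 3 and 1 against 265 and 196, and Egfr 3 and 4 against 349 and 393. Pbx3, a homeodomain factor, gave 9 and 9 UMIs against 455 and 1337, a log2 ratio of -3.60 and -3.72. Cpne7 gave 0 and 1 UMIs against 187 and 271, and Sema5b 4 and 0 against 181 and 213.

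The cells varied among themselves. Clustering without the rule genes, sex-linked, mitochondrial and ribosomal genes, with each gene centred within its library, gave 2 groups at the chosen resolution, of 31 cells (22 control, 9 WMI) and 23 cells (16 control, 7 WMI), and 1 or 5 groups at a lower or higher resolution. The larger group was led by Syt2, Tmem108, Myo1e, Slit2 and Trpc4, and the smaller by Synpr, Ntng1, Nkain3, Unc13c and Cdh4, with Grin3a also among its leading genes. The Sst-type list stood at 185 CPM in the larger and 642 CPM in the smaller group, the caudal list at 185 and 730 CPM, and the parvalbumin-type list at 1414 and 1213 CPM. Those genes took part in the clustering, so these levels describe the groups and are no finding. Among the leading 10 genes, the larger group had 1 parvalbumin-type marker, Syt2, and the smaller had 1 Sst-type marker, Grin3a, and 1 caudal marker, Synpr, so both groups stay unnamed. Median depths were 11037 and 10088 UMIs.

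The share of Lhx6 interneurons without Sst among passing barcodes was 0.398% (exact interval 0.282 to 0.546) in the control and 0.197% (0.113 to 0.320) in the WMI library, a difference of -0.201 percentage points (-0.372 to -0.0319). Sst interneurons made up 0.220% and 0.247%, a difference of 0.0264 points (-0.124 to 0.184), and Adarb2 interneurons 2.08% and 3.17%, a difference of 1.09 points (0.612 to 1.58). Within the Adarb2 class the striatal and basal forebrain markers stood at 1149 CPM in control and 1837 in WMI, a log2 ratio of 0.68, and Pbx3 at 278 and 621 CPM. Those cells are also part of the barcodes with Gad1 and Gad2, and the part of the dissected area in either share was not tested. Of the barcodes with Gad1 and Gad2, the cells without Sst were 5.01% in control and 2.62% in WMI. Of the barcodes that met all conditions but the one on Sst they were 45.8% and 38.1%, with a difference of -7.69 points (-26.1 to 11.9) that included 0. The interval of the difference among passing barcodes also included 0 when Lhx6 had to reach 2 UMIs (-0.111 points, 20 and 8 cells), when predicted doublets were left out (34 and 16 cells), when the mitochondrial share was held to 1%, when Adarb2 had to be 0 and when the rule was applied after thinning to 3000 UMIs. It did not include 0 among barcodes with at least 3000 UMIs (-0.324 points, -0.561 to -0.0957). Nor did it when 1 Sst UMI was allowed (-0.379 points, -0.587 to -0.173). Of the barcodes with Gad1 and Gad2 the difference was -2.39 points (-4.51 to -0.242). Shares in single libraries also depend on how tissue was dissected and dissociated, which was not tested.

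**Figure D3:**
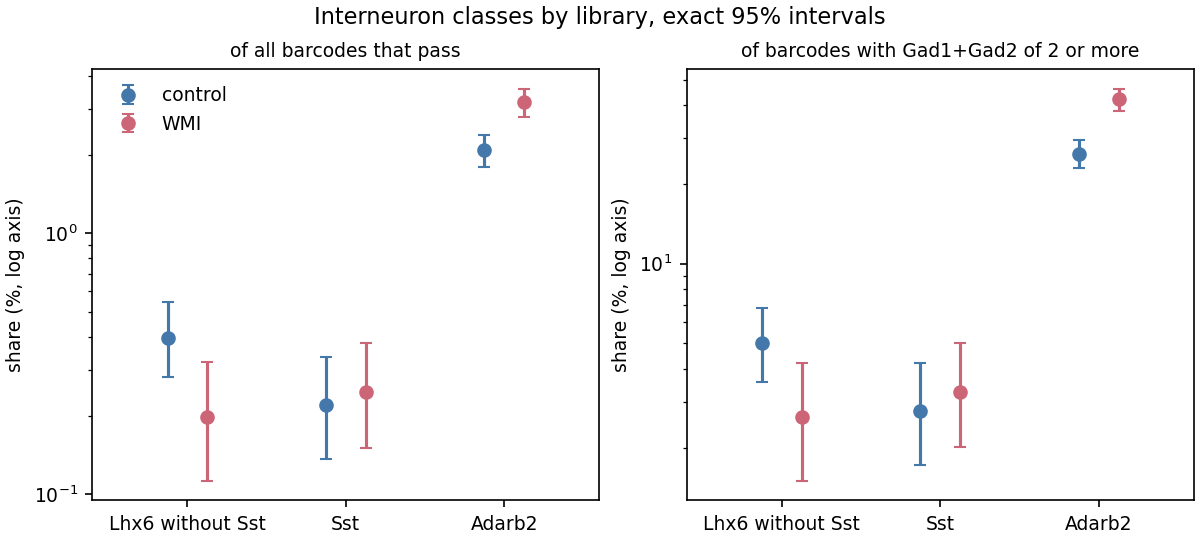
Share of Lhx6 interneurons without Sst, Sst interneurons and Adarb2 interneurons (vertical log axis, %) of all passing barcodes (left) and of barcodes with at least 2 UMIs of Gad1 and Gad2 (right), with exact 95% intervals. The class without Sst went from 0.398% in control to 0.197% in WMI on the left, while the Adarb2 class went from 2.08% to 3.17%.

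Levels in WMI and control cells were then compared gene by gene. Of 943 genes with at least 100 UMIs over the 54 cells, 42 lay at least 2-fold apart (4.45%), 26 higher in WMI (2.76%) and 16 lower (1.7%). The median log2 ratio over all 943 was -0.10 and the 5th and 95th percentiles were -0.72 and 0.66. Without the deepest WMI cell, 23 of 865 genes lay at least 2-fold apart, 16 higher and 7 lower, and without the 2 deepest, 21 of 828, 12 higher and 9 lower. Centred on the median of all genes the split was 29 higher and 11 lower, and over the 7 WMI cells without Xist it turned to 14 higher and 23 lower. None of the 6 tested lineage transcription factors lay past 2-fold (median log2 ratio 0.03), nor did any of the 3 tested genes of GABA handling (0.02), the 4 of parvalbumin type (-0.01), the 6 of GABA-A receptor subunits (0.22) or the 4 of the neuregulin and ErbB family (0.02). Erbb4 had a ratio of 0.05 (-0.03 to 0.13) and Sox6 of 0.19 (-0.07 to 0.45).

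Of 7 tested fast-spiking channel genes 1 lay past 2-fold, and the list's median was -0.05. That gene was Kcnip1, which encodes a partner of A-type potassium channels, with 8 UMIs per cell at the median in control and 1.5 in WMI, ranges of 0 to 23 and 0 to 27, and UMIs in 35 of 38 and 11 of 16 cells. Its log2 ratio was -1.15 (-1.54 to -0.78), and it was -0.79 without the deepest cell, -0.69 when Lhx6 had to reach 2 UMIs and -0.80 over the 7 WMI cells without Xist. In Sst interneurons it was -0.27, in Adarb2 interneurons -0.34 and in excitatory neurons 0.37. None of the 14 other tested potassium, sodium and calcium channel genes lay past 2-fold (median -0.19). The median of the 15 tested glutamate receptor genes was -0.06, and Gria1, the most abundant of the list, was at 0.23 with and -0.48 without the deepest cell. None of the 10 synapse organisers, 7 genes of presynaptic release and 2 of the perineuronal net lay past 2-fold, with medians of -0.08, -0.05 and -0.23. Genes of neurotrophin and activity response stood at 1137 and 1037 CPM in all, led by Ntrk2, the receptor of brain-derived neurotrophic factor, with Fos, Fosb and Arc at 0 in both libraries. Immature neuron markers stood at 427 and 566 CPM, a ratio of 0.40 (0.04 to 0.76), led by Stmn2 and Dcx. Genes of the hypoxia response, of cell death and stress and of the endothelin system each stayed below 100 UMIs over the 54 cells. Their sums were 249 and 230 CPM, 374 and 388 CPM, and 76.3 and 105 CPM, and the interval of each ratio included 0. Ednrb, the endothelin receptor gene the study is about, gave 3 UMIs in control and 1 in WMI cells.

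Among the genes lower in WMI cells, Pdzrn3, a ubiquitin ligase, was held at a median of 2 UMIs per cell (0 to 28) in control and 1 (0 to 4) in WMI cells, 374 and 105 CPM, a log2 ratio of -1.84 (-2.59 to -1.16), and it was -1.55 without the deepest cell and -1.35 over WMI cells without Xist. Its ratio was -0.32 in Sst interneurons, -0.18 in Adarb2 interneurons and -0.20 in excitatory neurons. Synpr had UMIs in 19 of 38 control and 6 of 16 WMI cells and a ratio of -1.73 (-2.56 to -0.99), which was -1.37 without the deepest cell, -0.94 when Lhx6 had to reach 2 UMIs and -0.78 over WMI cells without Xist. The receptor tyrosine phosphatase genes Ptprk and Ptprm stood at -1.40 and -1.20, and at -1.24 and -0.90 without that cell. Over WMI cells without Xist they were at -0.89 and -0.88. Kctd16 and Kctd8, auxiliary subunits of the GABA-B receptor, stood at -1.22 and -1.13, and at -0.88 and -0.90 without it. Over WMI cells without Xist they were at -0.51 and -1.38. Bcl11a, a transcription factor of postmitotic neurons, was at -1.17, Prr16 at -1.18 and the transcription factor Cux2 at -1.01. These fell short of 2-fold without the deepest cell, at -0.90, -0.82 and -0.65, and over WMI cells without Xist they were at -0.48, -0.44 and -1.62.

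Among the genes higher in WMI cells, a few cells weighed heavily. Gpc6, a heparan sulfate proteoglycan, had 6 UMIs per cell at the median in control (0 to 21) and 5.5 in WMI (2 to 356), so the medians were close while the sums gave a ratio of 2.31 (2.10 to 2.53). The deepest cell held 57.2% of the WMI UMIs of Gpc6, and the next deepest held 144 of the other 266. The ratio was 1.44 without the deepest cell, 0.52 without both and 0.65 over the 7 WMI cells without Xist. Sdk1, an adhesion molecule of synaptic layers, had a ratio of 2.22, with medians of 1 UMI in both libraries and a highest value of 83 in WMI, and stood at 1.55 without the deepest cell, 0.23 without both deepest cells and 0.34 over WMI cells without Xist. Pdzrn4 was at 1.88 and Cntnap5b at 1.82, and at 0.93 and 1.62 without the deepest cell, 1.02 and 0.78 without both, and 0.92 and 0.77 over WMI cells without Xist. Inpp4b was at 1.61 and Zfp804b at 1.25, and at 1.39 and 1.16 without the deepest cell, 0.60 and 0.85 without both, and 0.56 and 0.88 over WMI cells without Xist. With each cell weighted equally Zfp804b was at 0.96. In excitatory neurons Gpc6 was at -0.02, Sdk1 at 0.01, Pdzrn4 at 0.21, Cntnap5b at 0.26 and Zfp804b at -0.13, whereas Inpp4b was at 0.72. In Sst interneurons Cntnap5b was also higher in WMI, by 1.15 (0.63 to 1.68), and Gpc6 by 0.69 (0.40 to 0.99). Inpp4b was there at 0.70 (-0.04 to 1.46), Sdk1 at -0.17, Pdzrn4 at -0.17 and Zfp804b at -0.59. In Adarb2 interneurons Inpp4b was at 1.17 and the other 5 genes ran from -0.07 for Gpc6 to 0.30 for Pdzrn4. C130073E24Rik, a noncoding RNA gene, had the highest ratio of a gene found in both libraries, 5.35, with 81.8% of its WMI UMIs from the deepest cell, and 3.25 without that cell, but it turned to -0.60 when Adarb2 had to be 0. It was higher in WMI in the other classes too, by 4.70 in Sst interneurons, 2.05 in Adarb2 interneurons and 1.94 in excitatory neurons.

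**Figure D4:**
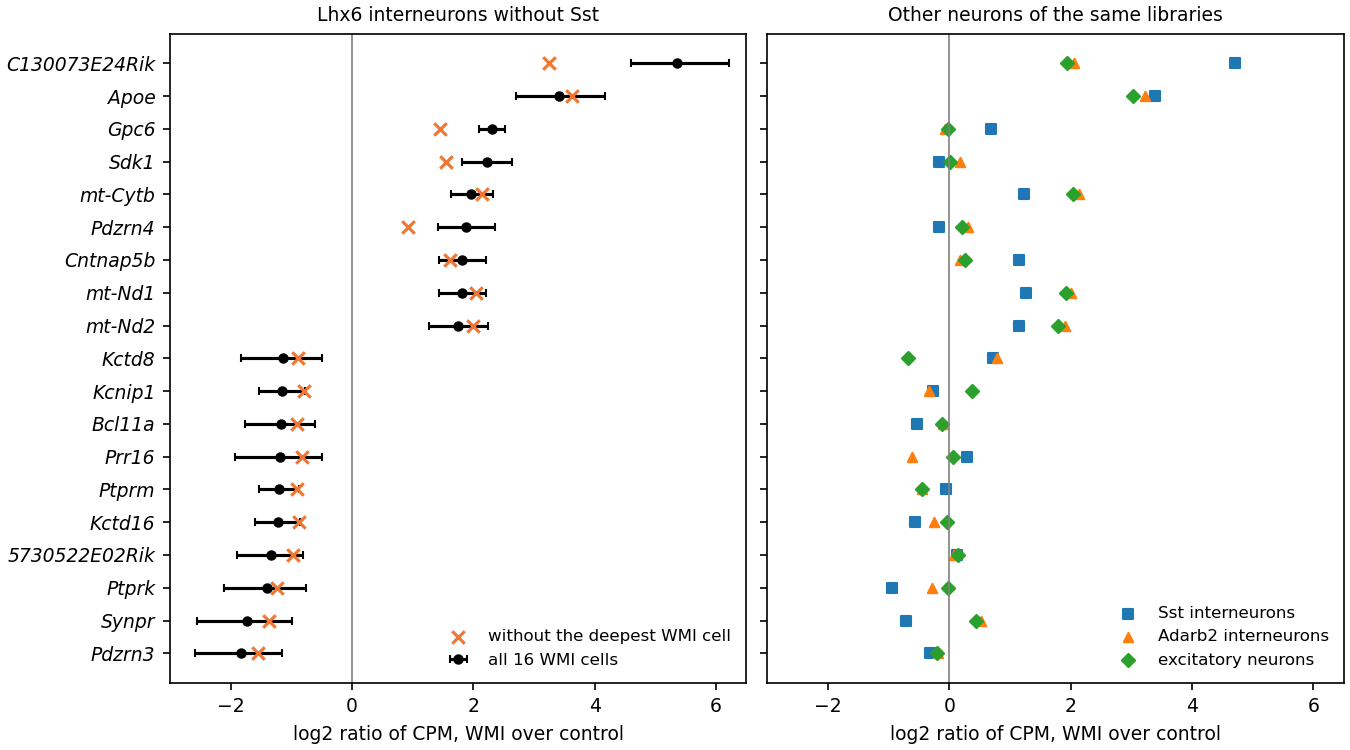
Log2 ratio of CPM in WMI over control (horizontal axis) for the 9 highest genes other than Xist and the 10 lowest, in Lhx6 interneurons without Sst with 95% counting intervals and crosses for the value without the deepest WMI cell (left), and in Sst interneurons, Adarb2 interneurons and excitatory neurons (right). Apoe and the mitochondrial genes were higher in WMI in all 4 classes, while Pdzrn3 ran from -1.84 in the cells without Sst to -0.18 in Adarb2 interneurons.

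Several RNAs were higher in WMI in neurons of every class examined. Apoe, the lipid carrier made by astrocytes and activated myeloid cells, had 0 to 3 UMIs in control cells, with a UMI in 15 of 38, and 3 to 10 in WMI cells, with a UMI in 16 of 16, so that both ranges met at 3. The ratio was 3.41 (2.71 to 4.18) in the cells without Sst, and 3.40 in Sst interneurons, 3.22 in Adarb2 interneurons and 3.03 in excitatory neurons. The list of activated myeloid markers, of which Apoe was the most abundant and Lgals3 was at 0, gave 36 UMIs in control and 149 in WMI cells, with 8 of 9 genes found and a summed ratio of 3.09 (2.56 to 3.66) against 3.33, 2.95 and 2.92 in the other classes. Ctsd, a lysosomal protease, gave 12 and 31 UMIs. Homeostatic microglia markers gave 44 and 52 UMIs, with 9 of 10 genes found, Cx3cr1 the most abundant and Aif1 at 0, and a ratio of 1.28 against 1.78, 1.36 and 1.42. Astrocyte markers, 9 of 9 found and led by Slc1a2, stood at 338 and 278 CPM, a ratio of -0.29 (-0.77 to 0.18). Excitatory neuron markers, 12 of 12 found and led by Cux2, stood at 931 and 634 CPM, a ratio of -0.55 (-0.86 to -0.25). Without the deepest cell their WMI level was 752 CPM and the ratio -0.31. Blood and endothelial markers gave 1 and 0 UMIs. Oligodendrocyte lineage markers, 9 of 10 found, stood at 244 and 162 CPM. The part of RNA from other cells in these values was not tested.

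All 4 tested mitochondrially encoded genes lay past 2-fold on the higher side. mt-Cytb had 1 UMI per cell at the median in control (0 to 41) and 9 in WMI (0 to 70), with a ratio of 1.97 (1.63 to 2.32), mt-Nd1 stood at 1.82, mt-Nd2 at 1.75 and mt-Nd4 at 1.46. Single cells held much of these counts. Of the WMI UMIs, 1 cell gave 33.8% for mt-Cytb, 44.7% for mt-Nd1, 51.0% for mt-Nd2 and 43.4% for mt-Nd4, and of the control UMIs 1 cell gave 37.6%, 40.9%, 31.7% and 41.9%. Without the cell of each library with the most mitochondrial UMIs the ratios were 2.06, 1.73, 1.28 and 1.43. When Lhx6 had to reach 2 UMIs, which left 20 and 8 cells, they were 1.12, 0.54, 0.29 and -0.15. The 13 genes together, of which mt-Nd4l was at 0, stood at 1000 CPM in control and 3279 in WMI cells, a ratio of 1.71 (1.53 to 1.90), compared with 1.18 in Sst interneurons, 1.98 in Adarb2 interneurons and 1.87 in excitatory neurons. Nuclear genes of respiration stood at 771 and 807 CPM, a ratio of 0.07 (-0.22 to 0.35). The median mitochondrial share of a cell was 0.0484% in control and 0.224% in WMI.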

How the data were processed

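Gene counts per barcode were deposited by the authors as 1 matrix for each library, whole numbers of UMIs that had not been normalized, made with Cell Ranger 6.1.1 per the file headers. The submitters' processing notes also name Seurat and the build mm9. Of 55450 genes, 55233 had a symbol of their own and were used, so Dlx6os1 and Ddit3, each listed under 2 identifiers, were not analysed.

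The cells were chosen by the rule stated in the report, and the members, comparison classes and gene lists were chosen with earlier results of these data known. UMIs of a gene were summed over the cells of a class and library and divided by all UMIs of those cells (counts per 1000000 UMIs, CPM), with exact Poisson 95% intervals. Ratios are given as log2 with exact conditional binomial intervals, and shares with Clopper-Pearson intervals. The bounds of a difference of shares combine those of both libraries. Cells are not replicates, so no test was made. Genes that reached 100 UMIs summed over the 54 cells formed the background, and 2-fold was a rule of size. Where a count was 0, the limit is the level that 3 counts would give. For the share of cells with a Pvalb UMI, cells were also thinned to 3000 UMIs. The other shares of cells with a UMI are given at full depth. Doublets were kept in the main values. An alternative without them called 785 control and 542 WMI barcodes by simulated doublets, 4 and 0 of them among the cells described.

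Genes named in the text were the rule genes and markers, up to 4 most abundant genes of each list, all parvalbumin-type and chandelier markers, the 10 highest and 10 lowest ratios of WMI to control, and the 8 highest and lowest against Sst and Adarb2 interneurons by the smaller ratio of both libraries. Cux2, Inpp4b and Zfp804b in the comparison of WMI with control, and the genes that led the clusters, were named after their values were seen. A few genes that this rule takes in are not reported here. Clusters came from Leiden clustering (leidenalg 0.10.2) at resolution 0.8 on 20 principal components and 15 neighbours. Interval and ratio code was tested on simulated data. Python 3.11.15 and scipy 1.17.1 were used.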

Additional observations from a re-analysis of the deposited data

How the results depend on the processing

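No paired analysis was possible because each group is 1 library and the shared number 1 gives a single pair. The difference in the share of cells without Sst stayed below 0 as a point value under every alternative. Its interval included 0 in most of them, as given with the shares above. The difference was -2.39 points of Gad1 and Gad2 barcodes and -7.69 points of the barcodes that met all conditions but the one on Sst. When 1 Sst UMI was allowed it was -0.379 points (62 and 22 cells), an alternative chosen after seeing the data. Leaving out the deepest WMI cell, the 2 deepest, or the cell of each library with the most mitochondrial UMIs was also chosen after seeing the data. The count of genes past 2-fold, 42 of 943 (4.45%), was 45 of 517 (8.7%) with at least 2 Lhx6 UMIs, 20 of 272 (7.35%) with Adarb2 at 0, 23 of 865 without the deepest WMI cell, 21 of 828 without the 2 deepest, 90 of 1944 from 50 UMIs and 19 of 423 from 200 UMIs, the lower or higher number of genes tested being part of each setting. With Adarb2 at 0 the median log2 ratio was 0.055. The split of genes past 2-fold was 26 higher and 16 lower, 29 and 11 when centred on the median, and 14 and 23 over WMI cells without Xist. Resolutions of 0.4 and 1.2 gave 1 and 5 groups. Of 24 named genes past 2-fold, 14 were still past it without the deepest cell, 11 without the 2 deepest and 10 over WMI cells without Xist. Of 1079 values of 83 named genes over the alternatives, 881 stayed within the counting interval, 195 lay outside and 3 were counted as reversed. A reversal was counted only for genes past 2-fold in the main values. The 3 were mt-Nd4 at -0.15 with at least 2 Lhx6 UMIs, C130073E24Rik at -0.60 with Adarb2 at 0, and Ntrk3 at -0.16 over WMI cells without Xist. Sign changes of genes below 2-fold, such as that of Gria1 without the deepest cell, are not among them. The cause was not tested. With 38 and 16 cells, ratios of genes below 100 UMIs have wide counting intervals.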
